A study of Mus musculus with 8 samples.

Results

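The comparison described here set Ccl3 knockout against wild type in olfactory mucosa that received carrier and no added chemokine. It rests on 4 of the 8 arrays of the series, taken by their titles: 2 arrays labelled Ccl3-/- and 2 of C57BL/6 wild type. Olfactory mucosa lines the upper nasal cavity and combines the neuron-bearing epithelium with glands, glia, vessels and the connective tissue beneath them. Both groups had undergone bilateral bulbectomy, the removal of the left and right olfactory bulbs, and both were injected with carrier. The other 4 arrays, 2 of each genotype, received CCL3 itself, and they enter the fit and one set of side-by-side values below. The sources used here do not give age, sex, time after surgery, the strain behind the Ccl3-/- label, or whether RNA of several animals was pooled. Replicates are not stated to be separate animals, so each p-value reflects the spread between arrays alone, and that spread may be technical.

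CCL3, also called MIP-1α, is a secreted chemokine that draws macrophages and other leukocytes to inflamed tissue through G protein coupled receptors. Without the bulb, the olfactory neurons lose their target and die; they are cleared by phagocytes and are replaced from basal progenitors in the epithelium. Globose basal cells make the immediate neuronal precursors, which pass through a GAP43-positive immature stage before they express olfactory marker protein. Per its title, the study addressed the part of CCL3 in macrophage entry into the epithelium after this operation.

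Genes of neutrophils tended to be brighter, and genes of neuronal precursors dimmer, after carrier under the Ccl3-/- label than in the wild type. Medians of the glycolysis, gland, ribosomal and cytokine gene lists also lay above 0, but their size depended on single arrays. No single difference passed the test over all probe sets. Of 8150 probe sets tested by limma, 0 passed an adjusted p of 0.05 (0% called, lowest adjusted p 0.363), while 932 (11.4%) had an unadjusted p under 0.05. Of these, 410 (5.03%) were higher and 522 (6.4%) lower on the arrays labelled Ccl3-/-. The balance turned with the scaling, to 501 higher and 390 lower with each array scaled to one median and 503 and 412 with cyclic loess. With only the 4 carrier arrays in the fit, the counts were 265 higher and 232 lower. All differences below are therefore given as values, in log2 units as Ccl3-/- minus wild type, with the standard error of the fit and 2 arrays a side. Counts of list members use the brightest probe set of each gene, and over all 6181 genes 4.77% were higher and 6.02% lower at an unadjusted p under 0.05, with a median difference of -0.02.

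The spread between arrays was wide in this comparison. The absolute log2 difference had a median of 0.43 between the 2 wild-type arrays and 0.33 between the 2 arrays labelled Ccl3-/-, against 0.32 between the genotype means. More than 2-fold apart were 1130 probe sets (13.9%) within the wild type, 647 (7.94%) within the Ccl3-/- label and 395 (4.85%) between the means. Means of 2 arrays vary less than single arrays, so the values within and between genotypes are not on an equal footing. Wild-type replicate 1 stood apart from all other arrays, with a Gapdh 3' to 5' ratio of 2.59 against 0.755 to 1.31. Its log2 profile correlated with that of wild-type replicate 2 at 0.89, which is below the 0.90 it reached with replicate 1 of the Ccl3-/- label. For most list medians the values without single carrier arrays are therefore given as well. Replicates of the CCL3 groups lay closer together, with median absolute log2 differences of 0.27 for the wild type and 0.22 for the Ccl3-/- label. The fit shares one spread over all 4 groups, so standard errors and p-values after carrier may be too small.

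**Figure D1:**
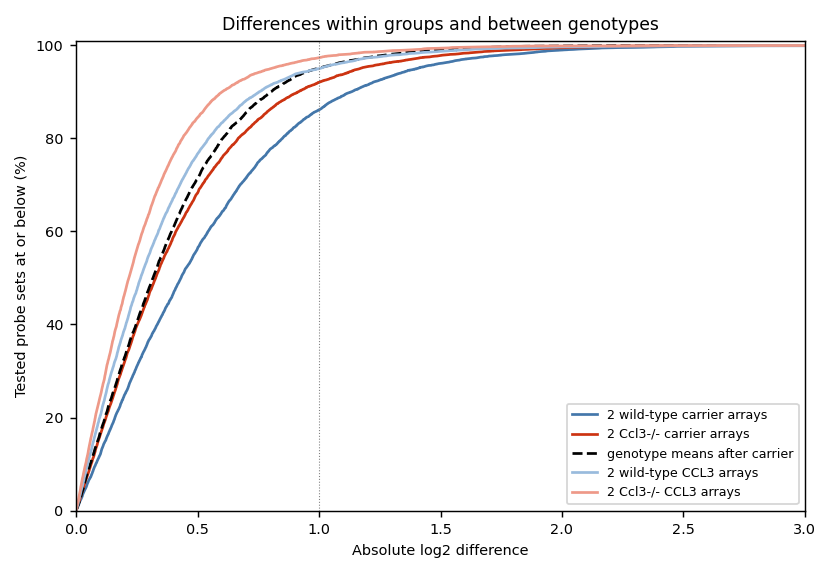
Cumulative share of tested probe sets (vertical axis, percent) by absolute log2 difference (horizontal axis) within each pair of replicate arrays and between the genotype means after carrier. The 2 wild-type carrier arrays lie furthest apart. The dashed line of the genotype means runs close to the line of the 2 Ccl3-/- carrier arrays, although means of 2 arrays vary less than single arrays. The dotted line marks 2-fold.

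The chemokine gene itself went against the genotype labels. The Ccl3 probe set read 332.3 and 159.4 on the wild-type arrays and 812.2 and 803.6 on the arrays labelled Ccl3-/-, a difference of 1.43 ± 0.35 (adjusted p 0.363 in limma). Both arrays labelled Ccl3-/- were above both wild-type arrays, whose signal lay under the filter value of 362.7. Which exons the Ccl3-/- allele lacks is not given in the labels, and a probe set outside the deletion checks nothing. Every direction in the text rests on the labels.

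Other chemokines of the CC family, which act on monocytes, lymphocytes and dendritic cells, showed no common direction. Of 23 listed CC chemokines and receptors on the arrays, 8 were tested; beside Ccl3, 1 was lower and none was higher at an unadjusted p under 0.05. Ccl22, a dendritic cell product that attracts T cells, read 961.4 and 1147 in the wild type and 631.7 and 463.6 under the Ccl3-/- label (-0.84 ± 0.26). Ccl2, the main monocyte attractant, read 390.2 and 207.8 against 423.7 and 893.2 (0.89 ± 0.48). Ccl9 and Ccl6, which lie in the same chemokine cluster as Ccl3, were at -0.64 ± 0.59 and 0.05 ± 0.32. Ccl4, the nearest relative of Ccl3, stayed under the filter on all 8 arrays (61.7 to 126.9 in the wild type and 54.9 to 167.5 under the Ccl3-/- label after carrier). Ccr1, a receptor for CCL3, was not tested either, with 199.8 and 236.2 against 572.5 and 261.2.

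The fractalkine pair was dimmer on the arrays labelled Ccl3-/-. Cx3cl1, the membrane-bound ligand made by neurons, epithelium and endothelium, read 3719 and 3327 in the wild type against 1815 and 2200 (-0.79 ± 0.28). Its receptor gene Cx3cr1, a marker of monocytes, macrophages and microglia, read 1087 and 1343 against 812.7 and 624.9 (-0.68 ± 0.27). Ligand and receptor both separated the 2 genotypes without overlap. Over all genes, 22.4% separated in that direction and 15.5% in the other. They were the 2 of 8 tested CXC and CX3C genes under an unadjusted p of 0.05, and both adjusted p-values were 0.394 or more in limma.

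Macrophage genes had a median near 0, with 2 of 25 tested members higher and none lower at an unadjusted p under 0.05. Lgals3, the galectin of activated macrophages that epithelia also make, read 3587 and 4684 in the wild type against 6670 and 13166 (1.17 ± 0.41). Arg1, the arginase of alternatively activated macrophages, read 365.9 and 171.8 against 660.9 and 751.4 (1.17 ± 0.46). The list median was 0.13, at -0.05 without wild-type replicate 1 and 0.19 without replicate 2. In bulk tissue, more or fewer cells of a type and more or less RNA per cell cannot be told apart, here and for every list below.

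Neutrophil genes gave the highest median of the 40 lists, 0.66 over 19 tested of 27 on the arrays, with 6 higher and 0 lower at an unadjusted p under 0.05. Ngp, a granule protein of maturing neutrophils, read 166.4 and 90.7 in the wild type against 1977 and 608.7 (2.42 ± 0.53). S100a8 and S100a9 encode the paired subunits of calprotectin, the main cytosolic protein of neutrophils. S100a8 read 6505 and 1348 against 17507 and 5958 (1.74 ± 0.68), and its groups overlapped, because wild-type replicate 1 exceeded replicate 2 of the Ccl3-/- label. S100a9 read 2851 and 321.9 against 7569 and 2233 (1.92 ± 0.85), with the same overlap. Camp, the cathelicidin of neutrophil granules, read 1001 and 1398 against 2400 and 3698 (1.26 ± 0.60). Slfn2, a schlafen gene of myeloid cells and lymphocytes, read 147.1 and 477.5 against 1329 and 2073 (2.21 ± 0.39), and its probe set may take up signal of related schlafen genes.

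Other granulocyte genes were at the floor or shared with epithelium. Mpo, the peroxidase of primary granules, read 167.8 and 150.7 against 70.8 and 508.5 (0.31 ± 0.59), and Cxcr2, the receptor that draws neutrophils to CXC chemokines, was below the filter on all 8 arrays. Ltf and Lcn2, granule genes that nasal glands also express, were bright in both genotypes. Ltf read 52407 and 47149 against 53550 and 82472, and Lcn2 33195 and 34661 against 37267 and 76855, with a difference of 0.66 ± 0.31 that another Lcn2 probe set did not share (-0.92 ± 0.38). The list median of 0.66 is the value of Lcn2, the middle one of the 19 tested genes, and the list mean was 0.82. The median of the neutrophil list was 0.65 and 0.52 without wild-type replicate 1 and 2, and 0.95 and 0.42 without replicate 1 and 2 of the Ccl3-/- label. It was 0.35 with no filter and 1.15 with the filter at the 60th percentile.

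Cytokine signalling genes of the interleukin 1, TNF and interleukin 6 families had 4 members higher and 1 lower among 16 tested, with a median of 0.33. The 4 higher genes encode brakes and receptors. Socs3 encodes the feedback inhibitor of interleukin 6 and LIF receptors, and it read 1417 and 880.0 in the wild type against 2194 and 3121 (1.16 ± 0.30). Il1r2, the decoy receptor that binds interleukin 1 without signalling, read 598.4 and 375.2 against 1315 and 1058 (1.15 ± 0.31). Il1rn, the interleukin 1 receptor antagonist, read 94.2 and 200.6 against 386.6 and 772.3 (1.42 ± 0.49). Lifr, the receptor chain for LIF, read 1119 and 659.5 against 1641 and 2772 (1.21 ± 0.33). In all 4, both arrays labelled Ccl3-/- lay above both wild-type arrays, as for 15.5% of all genes. Second probe sets gave smaller values for Socs3 (0.56 ± 0.30) and Il1r2 (0.35 ± 0.30).

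Il6ra, the binding chain of the interleukin 6 receptor, went the other way, with 586.8 and 235.4 against 70.5 and 73.1 (-1.47 ± 0.50). The cytokine genes Il6, Tnf, Il1a and Il1b were not tested, because no more than 1 of the 8 arrays exceeded the filter value for any of them. Il1b read 184.3 and 106.4 against 461.0 and 72.1. Without wild-type replicate 2, which had the lower values of Socs3, Il1r2 and Lifr, the list median was 0.08, and without replicate 1 it was 0.48.

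The start regions of Socs3 and Il1r2 are shown because these 2 genes with the smallest p among the feedback and decoy genes carry the STAT palindrome TTCNNNGAA, the element bound by STAT factors of the interleukin 6 family. Each line gives the 250 bases before the RefSeq start, 5′ to 3′ on the strand of the gene in GRCm38.p6, with the match in capitals. Socs3 is on the minus strand at chr11:117969367-117969616 and Il1r2 on the plus strand at chr1:40085843-40086092.
Socs3: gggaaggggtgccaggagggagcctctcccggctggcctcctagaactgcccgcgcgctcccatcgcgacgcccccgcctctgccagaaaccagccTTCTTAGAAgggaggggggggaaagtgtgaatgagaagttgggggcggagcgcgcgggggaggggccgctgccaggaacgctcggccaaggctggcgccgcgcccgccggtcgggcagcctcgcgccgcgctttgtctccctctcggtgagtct
Il1r2: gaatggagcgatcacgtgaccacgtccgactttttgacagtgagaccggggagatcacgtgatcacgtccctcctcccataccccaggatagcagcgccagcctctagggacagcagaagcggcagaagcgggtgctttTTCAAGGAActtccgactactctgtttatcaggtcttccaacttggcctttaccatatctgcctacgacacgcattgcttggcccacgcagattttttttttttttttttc

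The match begins 154 bases before the start in Socs3 and 111 before it in Il1r2. The palindrome reads the same on both strands and was chosen after the values were seen. It occurred in 7 of 24 listed cytokine genes found in the promoter table and in 8.13% of all 27025 genes there. A match describes these letters and shows no bound factor.

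Genes of MHC class II presentation, which display peptides to helper T cells, did not go one way, but 2 of the chain genes were lower without overlap. H2-Ab1, the beta chain of the I-A molecule, read 1735 and 1649 in the wild type against 539.0 and 603.6 (-1.41 ± 0.24). H2-Eb1, a class II beta chain of the neighbouring E locus, read 3845 and 3576 against 1611 and 2151 (-0.96 ± 0.25). In both genes the replicates of a genotype lay close together and the genotypes did not overlap, as for 22.4% of all genes in that direction. H2-Aa, the alpha chain that pairs with H2-Ab1, read 997.1 and 4218 against 1364 and 1145 (-0.69 ± 0.50), and Cd74, the invariant chain, 2417 and 6941 against 3242 and 2798 (-0.44 ± 0.41). For these 2 genes, wild-type replicate 2 alone was high.

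Ifi30, a lysosomal thiol reductase that prepares antigen, was higher (445.0 and 837.0 against 1237 and 2214, 1.30 ± 0.34). Over the 11 tested members, 2 were lower and 1 higher at an unadjusted p under 0.05, with a median of -0.12 that was -0.49 and 0.31 without wild-type replicate 1 and 2, and -0.46 and 0.18 without replicate 1 and 2 of the Ccl3-/- label. The start regions of H2-Eb1 and H2-Aa are shown because both hold the letters CTGATTGG, the Y box of class II promoters that binds NF-Y. They lie at chr17:34305617-34305866 on the plus strand and chr17:34287824-34288073 on the minus strand of GRCm38.p6, and the Y box is in capitals.
H2-Eb1: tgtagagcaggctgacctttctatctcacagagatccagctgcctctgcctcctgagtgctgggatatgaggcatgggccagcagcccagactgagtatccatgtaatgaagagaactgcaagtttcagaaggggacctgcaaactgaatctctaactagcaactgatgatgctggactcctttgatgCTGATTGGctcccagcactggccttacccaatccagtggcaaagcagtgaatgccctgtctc
H2-Aa: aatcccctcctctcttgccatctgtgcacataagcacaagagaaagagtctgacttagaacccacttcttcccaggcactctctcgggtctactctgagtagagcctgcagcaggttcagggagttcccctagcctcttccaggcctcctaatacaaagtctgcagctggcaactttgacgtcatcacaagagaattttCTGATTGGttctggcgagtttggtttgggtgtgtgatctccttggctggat

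The element begins 62 bases before the RefSeq start in H2-Eb1 and 51 before it in H2-Aa. On either strand it occurred in 3 of 10 listed class II genes found in the table and in 4.43% of all genes there. The 2 genes share these letters, and H2-Eb1 separated the genotypes while H2-Aa did not. This search was also chosen after the values were seen.

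B cell genes were mostly dimmer on the arrays labelled Ccl3-/-, and B cells also carry class II molecules. Of 15 tested B cell and plasma cell genes, 3 were lower and 1 higher at an unadjusted p under 0.05, with a median of -0.32 and 11 values below 0, where 51.6% of all genes lay. Spib, a transcription factor of B cells and dendritic cells, read 1074 and 1308 against 669.0 and 287.2 (-1.23 ± 0.38). Ms4a1, which encodes the B cell antigen CD20, read 923.9 and 1144 against 646.6 and 427.2 (-0.84 ± 0.28). Cd79a, a signalling chain of the B cell receptor, read 488.7 and 1078 against 313.6 and 442.5 (-0.81 ± 0.36). All 3 separated the genotypes, as 22.4% of all genes did in that direction. The mean log2 level of the list was 10.09 and 10.31 on the wild-type arrays and 9.76 and 9.86 under the Ccl3-/- label; its part in the class II values was not tested. The single higher member, Cd24a (0.68 ± 0.26), is also strongly expressed in neural and epithelial cells. Ighm, the immunoglobulin heavy chain of naive B cells, was at -0.06 ± 0.47. The list median was -0.52 and -0.31 without wild-type replicate 1 and 2, and -0.21 and -0.59 without replicate 1 and 2 of the Ccl3-/- label. With the filter at the 60th percentile it was -0.018. All 7 tested T and NK cell genes were below 0, with a median of -0.28 (-0.57 and -0.05 without wild-type replicate 1 and 2), although the T cell receptor genes Cd3e and Cd3g were below the filter on all 8 arrays.

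**Figure D2:**
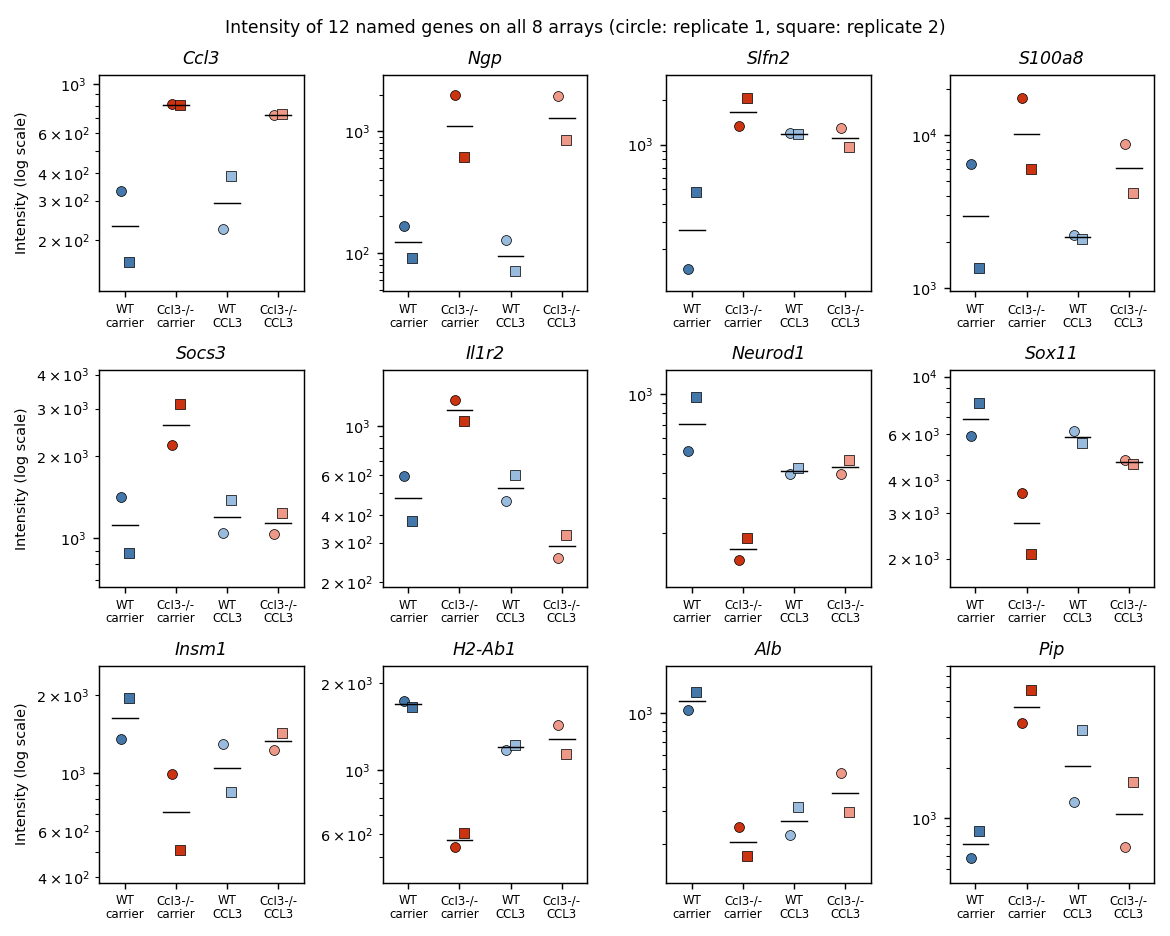
Intensity (log axis) of 12 genes on all 8 arrays in the 4 groups, with circles for replicate 1, squares for replicate 2 and a line at the mean of the log values. After carrier, Neurod1, Sox11, H2-Ab1 and Alb lie lower, and Ngp, Slfn2, Socs3, Il1r2 and Pip higher, on both arrays labelled Ccl3-/-, while S100a8 overlaps.

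Neuronal precursor genes gave the lowest median of the 40 lists, -0.48 over 22 tested of 24 on the arrays. At an unadjusted p under 0.05, 5 members were lower and 0 higher. Of 22 values, 19 lay below 0 (51.6% of all genes did), and 11 separated the genotypes downward (22.4% of all genes did). The 5 genes are transcription factors of the globose basal cell lineage. Neurod1, expressed in late precursors about to leave the cycle, read 515.6 and 959.9 in the wild type against 146.9 and 187.9 (-1.59 ± 0.35). Sox11, which runs through immediate precursors and newborn neurons, read 5908 and 7926 against 3587 and 2080 (-1.29 ± 0.30). Insm1, which promotes the last divisions of precursors, read 1360 and 1935 against 991.9 and 510.6 (-1.08 ± 0.34).

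Neurog1, the proneural factor of immediate neuronal precursors, read 489.3 and 446.8 against 157.8 and 232.6 (-0.95 ± 0.35). Hes6, a partner of proneural factors, read 3583 and 3329 against 1733 and 2548 (-0.69 ± 0.28). None of these adjusted p-values was below 0.363 in limma. The list median stayed below 0 whichever carrier array was left out, between -0.54 and -0.36. The 3 values above 0 belonged to Id2, Pax6 and Six4, at 0.19 ± 0.25, 0.28 ± 0.32 and 0.31 ± 0.38.

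Immature neuron genes had 2 lower and 0 higher of 24 tested, with a median of -0.31. Marcksl1, a substrate of protein kinase C in growing neurites, read 5498 and 6163 against 3465 and 3738 (-0.68 ± 0.25). Stmn3, a microtubule-destabilising stathmin of growing axons, read 5192 and 3068 against 2871 and 1581 (-0.87 ± 0.36). Gap43, the growth cone protein that defines the stage, read 2446 and 6527 against 3854 and 2335 (-0.40 ± 0.43), so its groups overlapped. Tubb3, the neuronal beta tubulin, read 12429 and 11849 against 9717 and 7574 (-0.50 ± 0.24). The median was -0.48 without wild-type replicate 1, -0.19 without wild-type replicate 2, and -0.57 and -0.07 without replicate 1 and 2 of the Ccl3-/- label.

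Mature neuron genes had a median of -0.15, with 11 of 18 tested values below 0 and differences in both directions among the transduction genes. Omp, the olfactory marker protein, read 4251 and 12949 in the wild type against 21779 and 8657 (0.88 ± 0.52), and Cnga2, the transduction channel subunit, 3208 and 2600 against 6823 and 3845 (0.81 ± 0.35). A second Cnga2 probe set gave 0.02 ± 0.45, with overlap. Adcy3, the cyclase of the same cascade, read 10133 and 2673 against 4470 and 1364 (-1.04 ± 0.61). In the list, 1 gene was higher and 0 lower at an unadjusted p under 0.05. Its median was -0.09 and -0.13 without wild-type replicate 1 and 2, and -0.62 and 0.20 without replicate 1 and 2 of the Ccl3-/- label. Omp, Cnga2 and Adcy3, defining markers of the labelled tissue, lay over the filter value on all 8 arrays.

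Genes of DNA replication leaned upward, in contrast to the precursor factors. Of 31 tested replication genes, 7 were higher and 0 lower at an unadjusted p under 0.05, with a median of 0.32 and 27 values above 0, where 48.4% of all genes lay. Rpa3, a subunit of the single-strand binding protein, read 602.5 and 693.9 against 2023 and 1512 (1.31 ± 0.43). Tk1, the thymidine kinase of S phase, read 378.2 and 1320 against 1423 and 2788 (1.34 ± 0.50). Mcm7, a helicase subunit, read 483.2 and 1132 against 1191 and 2394 (1.08 ± 0.42). Wild-type replicate 1 was the dimmest and replicate 2 of the Ccl3-/- label the brightest array for Tk1 and Mcm7. Without that Ccl3-/- array the median was 0.05, and without the other 0.60.

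Mitosis genes had 3 higher and 1 lower of 32 tested, with a median of 0.30. Smc4, a condensin subunit, read 911.3 and 913.7 against 1713 and 1662 (0.82 ± 0.23), without overlap. The brighter of the Mki67 probe sets, for the proliferation antigen Ki-67, read 536.1 and 1268 against 438.8 and 290.1 (-1.02 ± 0.40), and the dimmer one went the other way (0.60 ± 0.52). The mitosis median was -0.01 without wild-type replicate 1, 0.66 without replicate 2, and 0.79 and -0.20 without replicate 1 and 2 of the Ccl3-/- label.

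**Figure D3:**
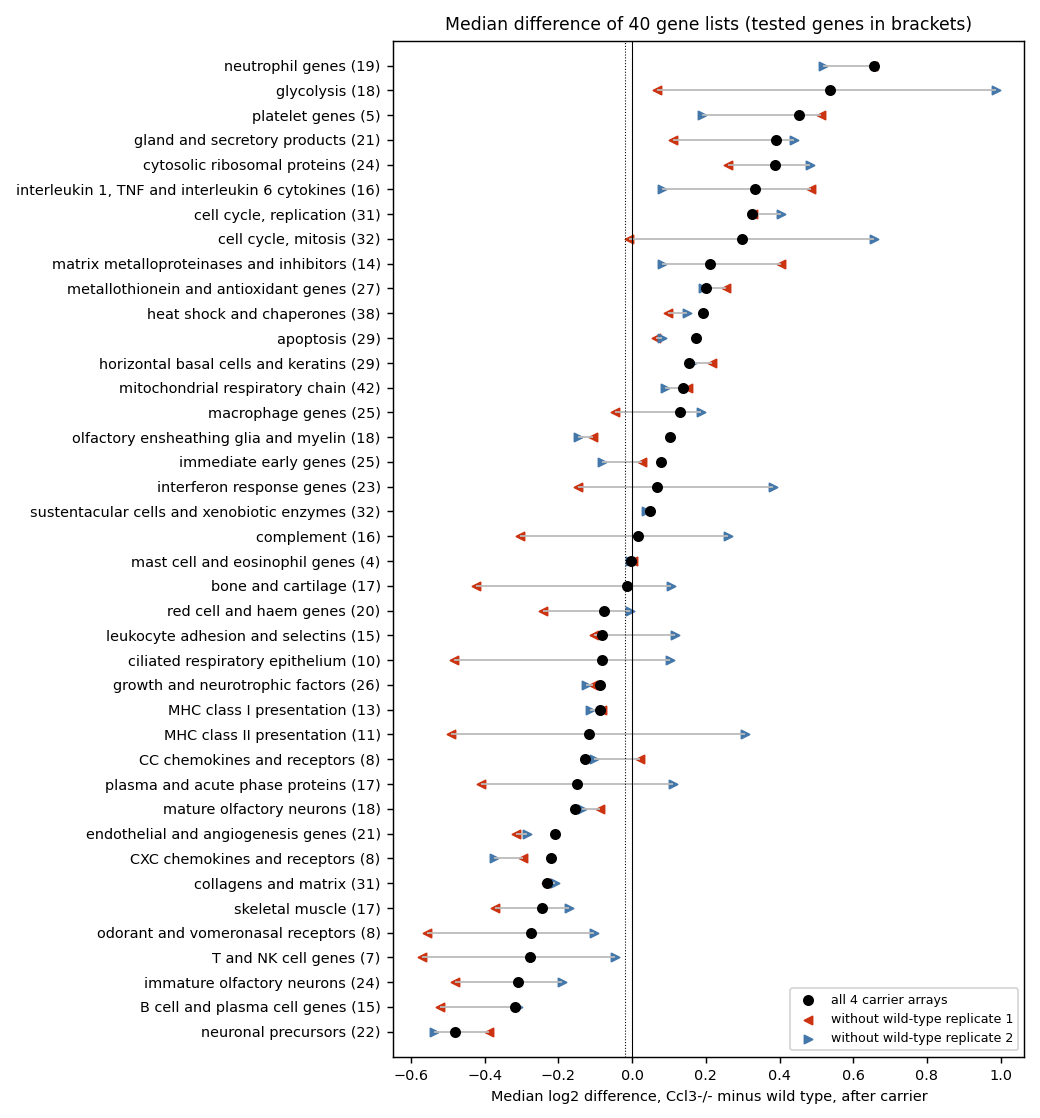
Median log2 difference (Ccl3-/- minus wild type after carrier, horizontal axis) of the tested genes of 40 lists, with triangles for the same median without each wild-type array; the dotted line is the median of all genes at -0.02. Neutrophil genes lie highest (0.66) and neuronal precursors lowest (-0.48), and glycolysis and MHC class II genes shift most between the triangles.

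Horizontal basal cell and keratin genes were divided, with 3 higher and 3 lower of 29 tested. Krt17, a keratin of activated basal cells, read 422.9 and 359.6 against 731.3 and 2252 (1.51 ± 0.44); one of its other probe sets shared the direction (1.09 ± 0.44) and one did not (-0.41 ± 0.29). Sfn, the epithelial protein stratifin, read 515.7 and 829.0 against 1246 and 2414 (1.28 ± 0.44). Krt6b, a keratin of stressed epithelia, read 1557 and 2119 against 1108 and 657.0 (-1.0 ± 0.30). Cdh1, the epithelial cadherin, was also lower (-0.69 ± 0.27). Keratin 6 genes are near copies, and Krt6a was at 1.75 ± 0.84, the opposite of Krt6b.

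Gland and secretory genes leaned upward, with 2 higher and 0 lower of 21 tested and a median of 0.39. Pip, the prolactin-inducible protein of nasal, lacrimal and salivary secretions, read 582.4 and 842.3 against 3662 and 5750 (2.54 ± 0.49, 5.84-fold). It was the largest of the named differences, and its genotypes lay far apart. Aqp4, a water channel of epithelial and glial cells, read 5204 and 6874 against 9616 and 9495 (0.67 ± 0.24). The median was 0.11 and 0.44 without wild-type replicate 1 and 2, and 0.66 and 0.10 without replicate 1 and 2 of the Ccl3-/- label.

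Sustentacular and xenobiotic enzyme genes had 3 higher and 0 lower of 32 tested, and a median of 0.05. Gsta4, a glutathione transferase for lipid aldehydes, read 4660 and 4391 against 7771 and 7802 (0.77 ± 0.27). Gstm2, a mu class transferase with close paralogs, read 3405 and 6598 against 18029 and 15300 (1.79 ± 0.74), but its other probe set gave -0.96 ± 0.43. Cyp2f2, the cytochrome of sustentacular cells, read 13645 and 38293 against 36616 and 36265, so wild-type replicate 1 alone was low. Gpx2, an epithelial glutathione peroxidase, read 3965 and 8858 against 17240 and 29934 (1.92 ± 0.49). It was 1 of 2 higher members among 27 tested antioxidant genes, none of which counted as lower. Gss, the second enzyme of glutathione synthesis, was lower in one probe set (823.2 and 1001 against 384.6 and 254.3, -1.28 ± 0.30) and not in the other (0.27 ± 0.27).

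Plasma and acute phase protein genes were divided, with 4 higher and 7 lower of 17 tested at an unadjusted p under 0.05. The lower ones are mainly liver products. Alb, serum albumin, read 1046 and 1301 against 244.4 and 171.0 (-2.04 ± 0.34). Apoa1, the HDL apolipoprotein, read 469.6 and 444.3 against 53.2 and 109.6 (-1.62 ± 0.46). Serpina1c, an antitrypsin whose paralogs are near copies, read 1709 and 2986 against 1062 and 651.2 (-1.34 ± 0.34). Each of these 3 genes separated the genotypes, as 22.4% of all genes did in that direction.

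The higher ones include genes that inflamed tissues make themselves. Itih2, a carrier of hyaluronan-binding chains, read 278.3 and 217.7 against 821.9 and 732.8 (1.33 ± 0.28). Hp, the haptoglobin that neutrophils and glands also make, read 1828 and 3745 against 10912 and 8672 (1.85 ± 0.77). Orm1, the acute phase orosomucoid, read 373.8 and 162.5 against 1058 and 830.3 (1.55 ± 0.49). Saa3, the serum amyloid made outside the liver, was not among the 4 and read 3563 and 341.8 against 3242 and 4743 (1.66 ± 0.97), so the genotypes overlapped. The list median of -0.15 has no stable sign: it was -0.41 without wild-type replicate 1, 0.11 without replicate 2, 0.16 without replicate 1 of the Ccl3-/- label and 0.44 with the filter set on the mean of all arrays.

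Collagen and matrix genes were mostly dimmer on the arrays labelled Ccl3-/-. Of 31 tested, 5 were lower and 1 higher at an unadjusted p under 0.05. Below 0 lay 21 of the values, as did 51.6% of all genes. The median was -0.23, between -0.23 and -0.21 whichever carrier array was left out. Col1a1, the main chain of fibrillar collagen, read 8367 and 16088 against 4056 and 6904 (-1.12 ± 0.44). Col6a3 and Col6a2, chains of the beaded collagen VI, were at -1.22 ± 0.40 and -0.78 ± 0.30. Fmod, fibromodulin, which controls fibril width, read 2332 and 2151 against 593.1 and 1236 (-1.28 ± 0.40). Lox, the collagen cross-linking enzyme, was higher in one probe set (0.85 ± 0.30) and not in another (-0.70 ± 0.48).

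Bone genes, which mark bone taken with the mucosa, were divided, with 2 higher and 3 lower of 17 tested. Ibsp, bone sialoprotein, read 1089 and 785.4 against 3258 and 3091 (1.67 ± 0.47), and Ctsk, the osteoclast protease, 2777 and 1439 against 3507 and 5149 (1.05 ± 0.36). Chad and Alpl, genes of cartilage and osteoblasts, were at -0.80 ± 0.24 and -0.65 ± 0.27. The part of bone and connective tissue in the matrix values was not tested. Mmp13, the collagenase of bone and wounds, read 3956 and 1166 against 8403 and 3481 (1.28 ± 0.57), with overlap.

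Metabolic and protein synthesis genes leaned upward, and wild-type replicate 1 moved with them. Of 18 glycolysis genes, 5 were higher and 0 lower at an unadjusted p under 0.05, with a median of 0.54, but the median was 0.07 without wild-type replicate 1, 0.99 without replicate 2 and 0.31 without replicate 2 of the Ccl3-/- label. Slc2a1, the basal glucose transporter, read 896.2 and 1184 against 2362 and 2405 (1.13 ± 0.31), with close replicates in each genotype. Hk1, the first glycolytic kinase, read 5526 and 12820 against 16394 and 35742 (1.51 ± 0.45). Ribosomal protein genes had 3 higher and 0 lower of 24 tested and a median of 0.39 (0.61 and 0.16 without replicate 1 and 2 of the Ccl3-/- label), led by Rps19 (10820 and 14573 against 21897 and 45046, 1.32 ± 0.34). The mean log2 level of the ribosomal list was 13.49 on wild-type replicate 1, 13.89 on wild-type replicate 2, and 13.89 and 14.35 under the Ccl3-/- label.

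Heat shock and chaperone genes had 3 higher and 0 lower of 38 tested, with a median of 0.19 that was 0.10 without wild-type replicate 1 and 0.34 without replicate 1 of the Ccl3-/- label. Hsp90b1, the endoplasmic HSP90, read 5763 and 6593 against 13061 and 11675 (0.99 ± 0.30). Hspd1, the mitochondrial chaperonin, read 3508 and 6216 against 8520 and 8953 (0.89 ± 0.29), and its other probe set gave -0.20 ± 0.34.

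The genes with the smallest p in each direction, 12 higher and 12 lower, were chosen from this contrast, so their values are a description. They hold several genes already named, and their adjusted p-values were all 0.363 in limma. Among the higher, Anxa1, the glucocorticoid-induced annexin that limits neutrophil entry, read 1993 and 1203 against 4086 and 9999.9 (1.98 ± 0.42). B3galt2, a galactosyltransferase, read 101.7 and 149.8 against 851.2 and 571.9 (1.82 ± 0.35). Ehf, an epithelial ETS factor, read 215.0 and 220.9 against 616.4 and 1232 (1.61 ± 0.35). Med1, a Mediator subunit that bridges nuclear receptors to RNA polymerase II, read 493.3 and 487.8 against 1133 and 1405 (1.20 ± 0.25).

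The remaining higher genes were Tgoln1 of the trans-Golgi network, at 1.59 ± 0.35, the aminoacylase Acy3 at 1.53 ± 0.33, the ribosome assembly factor Nsa2 at 1.53 ± 0.35, and Lrrfip2 at 1.28 ± 0.27. Another Tgoln1 probe set, the brightest, was at -0.22 ± 0.32. Among the lower, Clgn, a chaperone known from spermatogenesis, read 1534 and 1192 against 347.4 and 123.8 (-2.19 ± 0.39), and its other probe set gave 0.53 ± 0.37. Tubb2a, a beta tubulin of growing neurons, read 1302 and 1123 against 161.3 and 538.1 (-1.67 ± 0.39), but a brighter Tubb2a probe set gave -0.28 ± 0.28, with overlap. Med22, another Mediator subunit, read 6744 and 9947 against 3504 and 2741 (-1.37 ± 0.28). Gas7, a growth arrest gene with roles in neurite outgrowth, read 509.4 and 519.3 against 102.9 and 58.3 (-1.76 ± 0.40). Second probe sets of Med22 and Gas7 gave smaller values of -0.40 ± 0.24 and -0.34 ± 0.35. Prp2, of the proline-rich salivary proteins, was at -1.74 ± 0.38, the peroxisome import gene Pex14 at -1.69 ± 0.38 and Acbd6, which binds acyl-CoA, at -1.12 ± 0.26. Further Pex14 probe sets gave smaller values of -0.43 ± 0.33, with overlap, and -0.67 ± 0.28. With only the 4 carrier arrays in the fit, the highest unadjusted p among the 24 was 0.00968 in limma. The 24 were chosen for a small p and no overlap on these same arrays, so this value is no separate check.

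The arrays of mice injected with CCL3 share no array with the carrier comparison, so the same probe sets can be set beside it. Of all 8150, 50.98% had the same sign there. Of the 410 higher after carrier, 257 (62.7%) did, with medians of 0.96 after carrier and 0.08 after CCL3. Of the 522 lower, 235 (45.0%) did, with medians of -0.81 and 0.03. Both sets were chosen by their p after carrier, so their medians there had to lie further from 0.

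Ngp and Med1 were the exceptions among the 24 genes with the smallest p that were at least as far apart after CCL3. Ngp was at 2.42 after carrier and 2.81 ± 0.53 after CCL3, and Med1 at 1.20 and 1.74 ± 0.25. For the Pex14 probe set with the smallest p the values were -1.69 and -0.96 ± 0.38. Neurod1 and Sox11 were at 0.05 ± 0.35 and -0.31 ± 0.30 after CCL3, Socs3 at -0.08 ± 0.30 and H2-Ab1 at 0.09 ± 0.24. The median after CCL3 was -0.01 for neuronal precursors, 0.29 for neutrophil genes and 0.16 for collagen and matrix genes. The difference between the genotype differences was tested for each probe set. None passed (lowest adjusted p 0.908 in limma), and 412 had an unadjusted p under 0.05, so no gene is shown to depend on the injection.

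**Figure D4:**
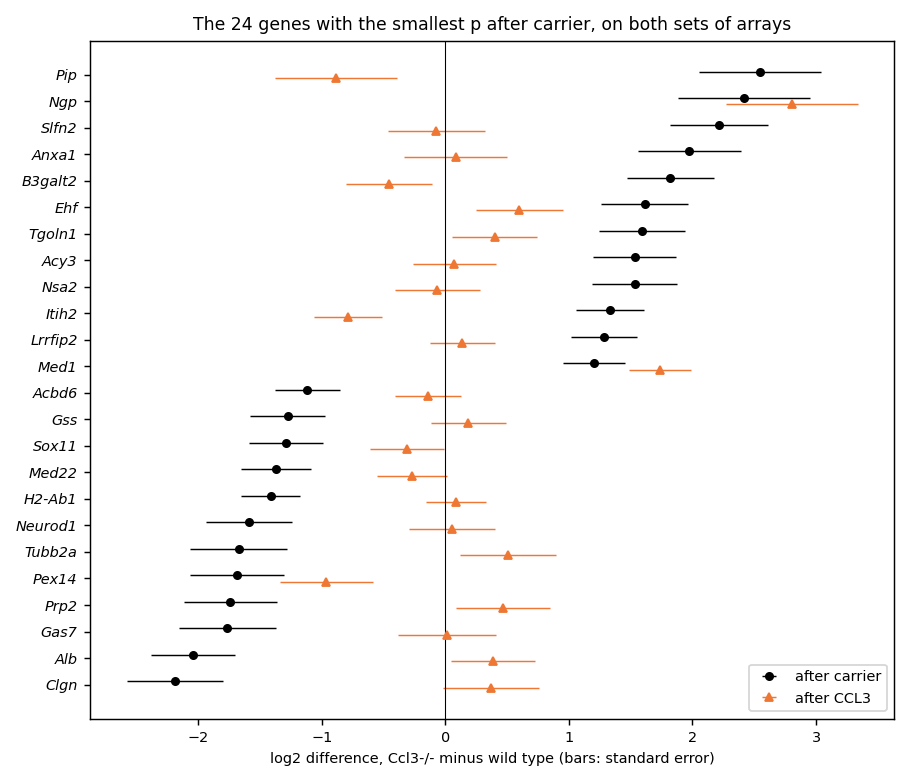
Log2 difference (Ccl3-/- minus wild type, horizontal axis, bars for the standard error) of the 24 genes with the smallest p after carrier, as circles after carrier and as triangles after CCL3, with 2 arrays a group. Ngp and Med1 lie to the right of 0 in both, and most of the others lie closer to 0 after CCL3; the genes were chosen by their values after carrier.

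Ccl3 lies on mouse chromosome 11, whose genes gave a share of low p-values close to that of the other chromosomes. Of 542 tested genes there, 11.25% had an unadjusted p under 0.05, against 10.74% of 5632 genes on other chromosomes. Medians were -0.04 and -0.01. These values cover the whole chromosome, and genes close to Ccl3 were not tested apart from the rest.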

How the data were processed

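Total RNA of mouse olfactory mucosa was measured on 8 single-colour expression arrays, 2 in each of 4 groups taken from the sample titles. The deposited intensity values, which are linear and given once for each probe set on each array, had been scaled by the authors before deposit, since their means after trimming 2% at each end differed by at most 0.0028%. The software is not given in the sources used here, and the values were not normalized again. Precision is limited by the number of arrays. The platform annotation gave a single gene symbol to 10855 of the 12488 probe sets, several to 396, which were not named, and none to 1237. Symbols were updated through the GRCm38.p6 gene table, where 16 found no match, and promoter sequences come from RefSeq on that build.

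Values were analysed as log2(value + 102.3), the 20th percentile of the table, so differences of dim genes are understated. Apart from 66 control probe sets, which were left out, a probe set entered the test if its value was over 362.7, the 40th percentile, on 2 or more arrays. limma 3.58.1 in R 4.3.3 fitted the 4 groups together with an intensity trend, 4 residual degrees of freedom and Benjamini-Hochberg adjustment over 8150 probe sets. The 40 lists hold 1336 genes, of which 1031 were on the arrays and 751 were tested, and they are described by counts and medians without a test.

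The comparison and the lists were chosen with earlier results of these data known. Genes were named as the 12 with the smallest p in each direction whose arrays did not overlap, Ccl3 and its cluster, up to 4 members of each list by p, and defining markers; list members named beyond this were chosen after their values were seen. An item of this rule is not reported here. Replicate numbers did not pair the arrays: deviations of same-numbered arrays correlated at -0.16 to 0.18. On simulated data of 8150 probe sets the fit recovered 0.1% of 1000 changes of 2-fold and 90.9% of 1000 changes of 4-fold, summed over repeated draws. Simulated arrays took one spread for each probe set from all 4 groups. These shares therefore do not give the recovery at the wider spread of the carrier arrays. Alternatives were quantile, single-median and cyclic loess normalization, other pseudocounts and filters, no trend, array weights, only the carrier arrays, a replicate block, all probe sets of a gene, and the omission of each array in turn. Any group left with 1 array is assumed to vary like the others.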

Additional observations from a re-analysis of the deposited data

Results flagged for a closer look

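Of the 24 genes with the smallest p after carrier, 7 of the 12 higher and 4 of the 12 lower kept their sign after CCL3. The genotypes lay apart in opposite directions after the 2 injections for 3 of the 24. In each, both arrays labelled Ccl3-/- lay on one side of the wild type after carrier and on the other side after CCL3. The difference between the 2 genotype differences, carrier minus CCL3 in log2 units, was 2.28 for B3galt2, 2.12 for Itih2 and -2.18 for Tubb2a. All 3 had an adjusted p of 0.908 in limma for that difference and did not pass. A brighter Tubb2a probe set was at -0.28 ± 0.28 after carrier. Over all tested probe sets, 410 lay apart in opposite directions after the 2 injections and 484 in the same direction.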

How the results depend on the processing

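Among the alternatives that kept 2 arrays in each fitted group, a probe set passed the adjusted threshold only with the replicate block. There Pip alone passed (1 probe set, adjusted p 0.0457 in limma). Without wild-type carrier replicate 2, the wild type was replicate 1 alone, the array with the Gapdh 3' to 5' ratio of 2.59. In that fit the differences were 2.82 for Slfn2, 2.0 for Acy3, 2.06 for Tgoln1 and -1.45 for H2-Ab1, and they rest on that 1 wild-type array. Leaving out each array in turn gave 0 to 110. For probe sets under an unadjusted p of 0.05 it gave 309 to 926 higher and 337 to 711 lower. The higher and lower counts were 236 and 228 with array weights and 265 and 232 with only the carrier arrays, and 838 were lower with no filter.

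The neuronal precursor median was -0.45 with quantile normalization, -0.44 with one median, -0.41 with cyclic loess, -0.35 and -0.54 with pseudocounts at the 40th percentile and of 16, -0.46 with no filter, -0.50 with the filter at the 60th percentile, -0.46 with all probe sets of a gene, and -0.54 to -0.36 with each array left out. The neutrophil median was 0.42 with the pseudocount at the 40th percentile, 0.35 with no filter, 0.90 with the filter on the mean, 1.15 with that at the 60th percentile, 0.43 with only the carrier arrays, and 0.42 to 0.95 with each array left out. The plasma protein median was -0.48 with no filter, 0.44 with the filter on the mean, 0.033 with that at the 60th percentile, -0.31 with all probe sets, and -0.41 to 0.16 with each array left out. The B cell median was -0.018 with the filter at the 60th percentile and -0.59 to -0.21 with each array left out. The same ranges were -0.49 to 0.31 for MHC class II, 0.067 to 0.99 for glycolysis, 0.08 to 0.48 for cytokine genes, -0.23 to -0.21 for collagens, 0.10 to 0.66 for glands, 0.05 to 0.60 for replication and 0.16 to 0.61 for ribosomal proteins. The causes of these shifts were not tested.

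Of 171 named genes none turned its direction under the settings that kept all arrays, where it was tested. With arrays left out 8 did, and the ends of their ranges were -0.088 and 0.19 for Ccl6, -0.83 and 0.28 for Cd4, -0.071 and 1.41 for Cyp2f2, -0.025 and 1.19 for Ifit3, -0.48 and 0.012 for Rsph1, -0.42 and 1.50 for Selp, -0.63 and 1.41 for Spa17, and -1.35 and 0.078 for Ccl9. The negative ends of Ccl6, Cyp2f2 and Ifit3 and the positive end of Cd4 came without wild-type replicate 1, the turned ends of Rsph1 and Selp without wild-type replicate 2, that of Spa17 without replicate 1 of the Ccl3-/- label and that of Ccl9 without its replicate 2.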

Other observations

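In the remaining lists, the share of members at an unadjusted p under 0.05 lay on both sides of the 10.8% of all genes. Among 25 immediate early genes, 2 were higher and 2 lower at an unadjusted p under 0.05 on the arrays labelled Ccl3-/- after carrier. Junb, a subunit of the AP-1 factor, read 3150 and 1774 in the wild type against 857.1 and 1249 (-1.12 ± 0.34), and its partner gene Fosb was at -0.73 ± 0.28. Another Junb probe set gave -0.43 ± 0.42, with overlap. Klf6, an injury-induced zinc finger factor, was at 0.63 ± 0.27. Of 29 apoptosis genes, Bok, a relative of Bax, read 2810 and 2525 against 1674 and 1436 (-0.74 ± 0.27), and Birc3, an inhibitor of apoptosis, 264.5 and 241.8 against 526.2 and 581.4 (0.88 ± 0.39). These were 2 of the 29, a smaller share than that of all genes.

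Complement genes included 2 lower and 0 higher of 16 tested, with a median of 0.02. C1qc, a chain of the recognition protein C1q that macrophages make, read 8108 and 6816 against 4514 and 4801 (-0.66 ± 0.23), and C1ra, the protease that C1q activates, 2960 and 2364 against 1398 and 1589 (-0.79 ± 0.25). C2, a further component of the classical pathway, was at 0.62 ± 0.31. Interferon response genes were 2 higher and 0 lower of 23, namely Slfn2 and Ifitm3, which blocks virus entry (8795 and 13538 against 17328 and 24633, 0.91 ± 0.30). Icam1, the endothelial and epithelial ligand of leukocyte integrins, read 246.0 and 237.4 against 515.0 and 656.3 (0.99 ± 0.39), the single member of 15 adhesion genes under an unadjusted p of 0.05.

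Growth factor genes gave 1 higher and 2 lower of 26 tested. Bmpr1a, a receptor for bone morphogenetic proteins, read 416.8 and 269.0 against 755.9 and 731.0 (0.95 ± 0.31), and Wnt10a, a ligand of the Wnt pathway, 660.5 and 562.3 against 327.0 and 286.6 (-0.80 ± 0.33). Red cell and haem genes had 2 higher and 1 lower of 20 tested, with a median of -0.08. Alas2, the first enzyme in red cell precursors, read 803.4 and 735.0 against 1389 and 1532 (0.84 ± 0.26). The later enzyme genes Urod and Cpox were at 1.03 ± 0.46 and -0.69 ± 0.29. Second probe sets of Urod and Cpox gave 0.16 ± 0.44 and -0.16 ± 0.35, both with overlap. Muscle genes, which mark muscle taken with the mucosa, had a median of -0.25 with 2 lower of 17 tested, among them Myod1 (-0.70 ± 0.27). The 21 endothelial, 42 respiratory chain and 10 ciliated cell genes held none under an unadjusted p of 0.05, with medians of -0.21, 0.14 and -0.08, the last at -0.48 and 0.10 without wild-type replicate 1 and 2.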
